A study of Mus musculus with 16 samples.

Results

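The elastic microfibril and latent TGF-beta binding genes are 10 genes whose products build the fibrillin and elastin fibres of the extracellular matrix or tether TGF-beta to them: Thsd4, Fbn1, Eln, Fbln5, Mfap4, Mfap5, Ltbp1, Ltbp2, Ltbp3 and Ltbp4. They were taken by gene symbol from count tables of 55487 genes, and each symbol named 1 row. RNA was sequenced from hearts of C57Bl/6J mice, aged 24 months, taken at mid-height of the left ventricle. The multiparous group was 8 mice with a history of more than 3 pregnancies, and the virgin group was 8 mice of the same strain and age with none. Neither group received any treatment. The number of pregnancies of each animal and the time since the last one were not known here.

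Library names hold a code that the labels leave unexplained. It is P in 4 and MP in 4 of the multiparous libraries and AA in all 8 virgin ones, so parity and a difference tied to the codes cannot be told apart. Gene counts per library lay between 34560606 and 58890976 in 15 libraries and reached 228325238 in virgin 8. Raw counts of the 10 genes ran from 119 (Ltbp2 in multiparous 4) to 80418 (Ltbp4 in virgin 8), so no library was near the limit of detection for any of them. Summed cardiomyocyte markers, the sarcomere and calcium-handling genes of the labelled tissue, held 63336 to 92151 CPM (read counts relative to library size, with TMM factors) in every library. Genes of kidney tubules, a tissue other than the labelled one, summed to between 1.49 and 16.7 CPM for multiparous mice and between 4.53 and 94.0 CPM for virgins. In bulk tissue, fewer cells of a type and less RNA per cell cannot be told apart.

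Fibrillin-1 polymerises outside the cell into microfibrils, beaded threads that serve as the scaffold on which tropoelastin is laid down and crosslinked into elastic fibres. The same microfibrils bind latent TGF-beta binding proteins, which hold the growth factor in an inactive complex in the matrix until integrins, proteases or mechanical pull release it. In the heart these fibres lie in the walls of coronary arteries, in the valves, in the epicardium and endocardium, and thinly between muscle cells, where fibroblasts and smooth muscle cells are their known makers.

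None of the 10 genes passed the threshold between multiparous and virgin hearts (edgeR quasi-likelihood test with Benjamini-Hochberg adjustment over 17813 genes, adjusted p under 0.05), where 0.0112% of all genes tested did, 0.00561% in the higher direction. The 2 genes with the clearest differences pointed in opposite directions. Thsd4, which promotes microfibril assembly, measured 1.27 times the virgin level in multiparous hearts, and Eln, which encodes elastin itself, 0.811 times. They were also the 2 genes with an unadjusted p under 0.05, against 8.12% of all genes tested (4.04% higher and 4.09% lower). The estimate was above 0 for 7 genes and below 0 for 3, with a median log2 fold change of 0.07 against 0.00 (−0.00297) over all genes. In all 10 genes the ranges of the groups overlapped, while 0.0337% of all genes had ranges that did not. The plot of levels by library keeps the codes of the multiparous libraries apart.

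**Figure D1:**
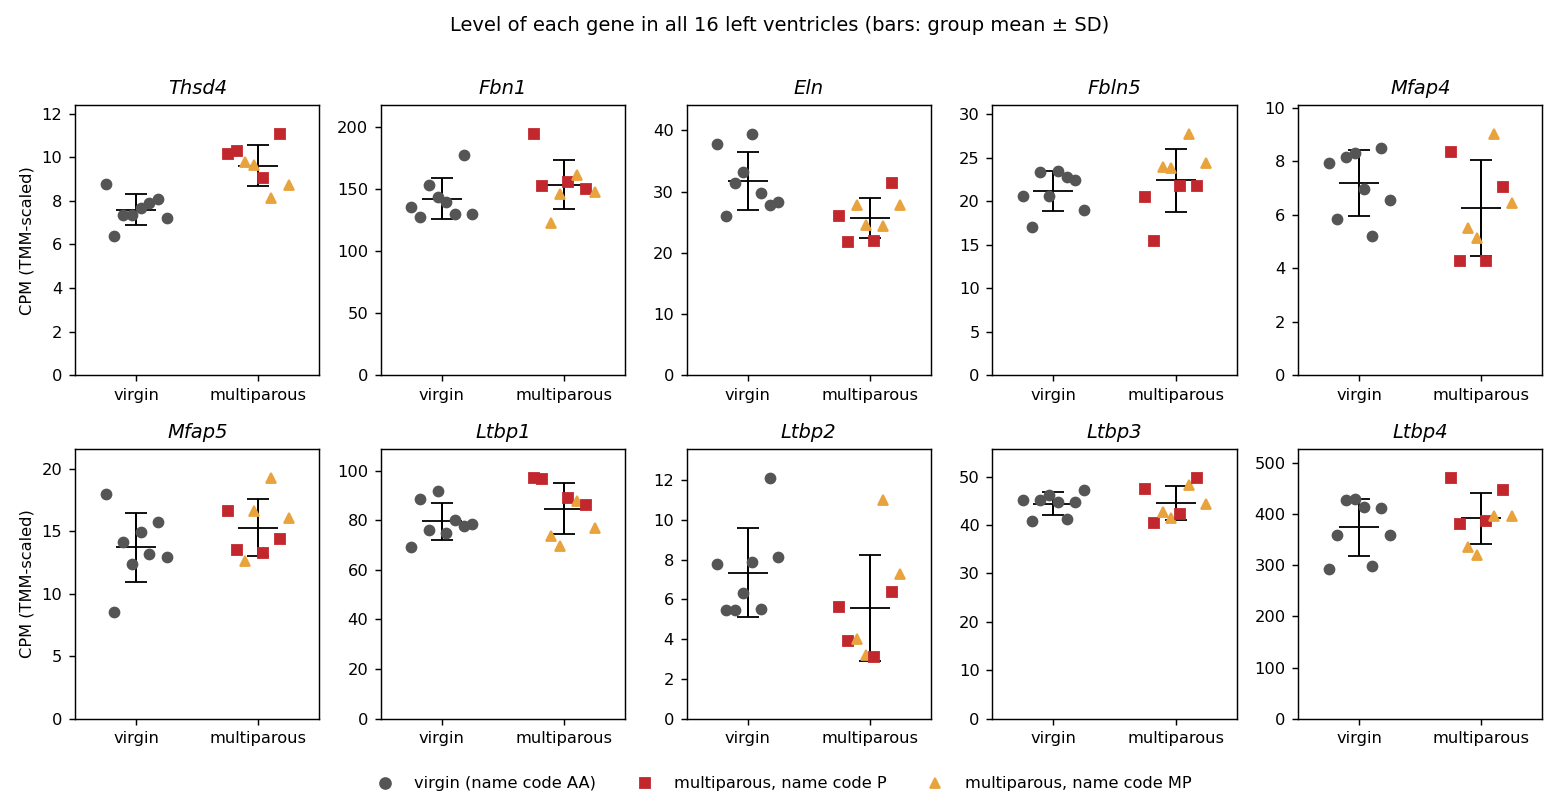
Each panel gives 1 gene, with its level in CPM (TMM-scaled, linear axis from 0) in 8 virgin and 8 multiparous left ventricles. Points are libraries, shaped by name code, and bars are the group mean ± SD; Thsd4 sits at 8.13 to 11.1 CPM in multiparous against 6.404 to 8.77 CPM in virgin hearts, and Eln at 21.7 to 31.5 against 26.1 to 39.4 CPM.

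Thsd4 (ENSMUSG00000032289.15) encodes a matrix protein with thrombospondin repeats, also called ADAMTSL6, that binds fibrillin-1 and promotes its assembly into microfibrils. The gene spans 59966931 to 60522046 on the minus strand of chromosome 9 in GRCm38, has 22 merged exons with 13986 bases, and shares no exonic base with another annotated gene. RefSeq gives it 2 starts, and the counts per gene do not separate transcripts from them. The 250 bases before each start are shown because Thsd4 had the smallest p of the 10 genes. Both windows lie on the minus strand of GRCm38.p6 and hold no annotated exon, and capitals mark the letters CAGAC or, on the other strand, GTCTG, a core that SMAD proteins, the carriers of the TGF-beta signal, are known to bind.
Thsd4, first start, chr9:60511036-60511285: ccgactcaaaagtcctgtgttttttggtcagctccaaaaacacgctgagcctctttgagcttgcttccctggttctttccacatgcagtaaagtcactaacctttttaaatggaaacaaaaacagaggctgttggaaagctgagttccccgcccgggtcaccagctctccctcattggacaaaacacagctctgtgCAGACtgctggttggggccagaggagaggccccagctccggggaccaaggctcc
Thsd4, second start, chr9:60141221-60141470: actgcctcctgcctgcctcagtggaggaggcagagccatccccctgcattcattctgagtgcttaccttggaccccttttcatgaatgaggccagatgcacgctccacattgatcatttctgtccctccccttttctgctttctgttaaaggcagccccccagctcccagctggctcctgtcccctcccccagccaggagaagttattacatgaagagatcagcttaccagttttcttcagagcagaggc
The first window has 1 match and the second has none. These 5 letters were found in 42.2% of 32851 RefSeq promoter windows of the same length, and in 6 of the 12 windows of the 7 genes with an entry. A match is a description of the letters only.

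In multiparous hearts Thsd4 measured 8.13 CPM at the lowest, 9.72 at the median and 11.1 at the highest, and in virgin hearts 6.404, 7.51 and 8.77 CPM. All 8 multiparous libraries lay above the virgin mean and 6 lay above every virgin library. The groups overlapped through multiparous 6 (8.13 CPM) and 8 (8.72 CPM) on one side and virgin 1 (8.77 CPM) on the other, and the multiparous library was the higher one in 62 of 64 pairs. The mean was 9.61 ± 0.94 CPM after pregnancies against 7.59 ± 0.70 CPM without (SD, n = 8 each), and the log2 fold change was 0.34 (SE 0.07, 95% interval 0.20 to 0.49, edgeR adjusted p = 0.0768). Within each group the spread was small, with a coefficient of variation of 9.79% and 9.23%.

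Whether Thsd4 passed depended on the fit. DESeq2 called it (adjusted p = 0.00264, with 0.730% of all genes called), and so did edgeR with no filter on low counts (adjusted p = 0.045, 0.154% called). In edgeR it passed without virgin replicate 1 (adjusted p = 0.048, 0.128% called) and without virgin replicate 7 (adjusted p = 0.0466, 0.307% called), and in none of the other 14 fits that left out 1 library. The P-coded libraries alone gave a log2 fold change of 0.415 against the virgin hearts (edgeR adjusted p = 0.0333, 0.521% called) and the MP-coded ones 0.26 (edgeR adjusted p = 0.347), and these 2 comparisons share their virgin libraries. Over all 25 alternatives its adjusted p ranged from 0.00264 to 0.347, and its log2 fold change stayed between 0.26 and 0.415.

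**Figure D2:**
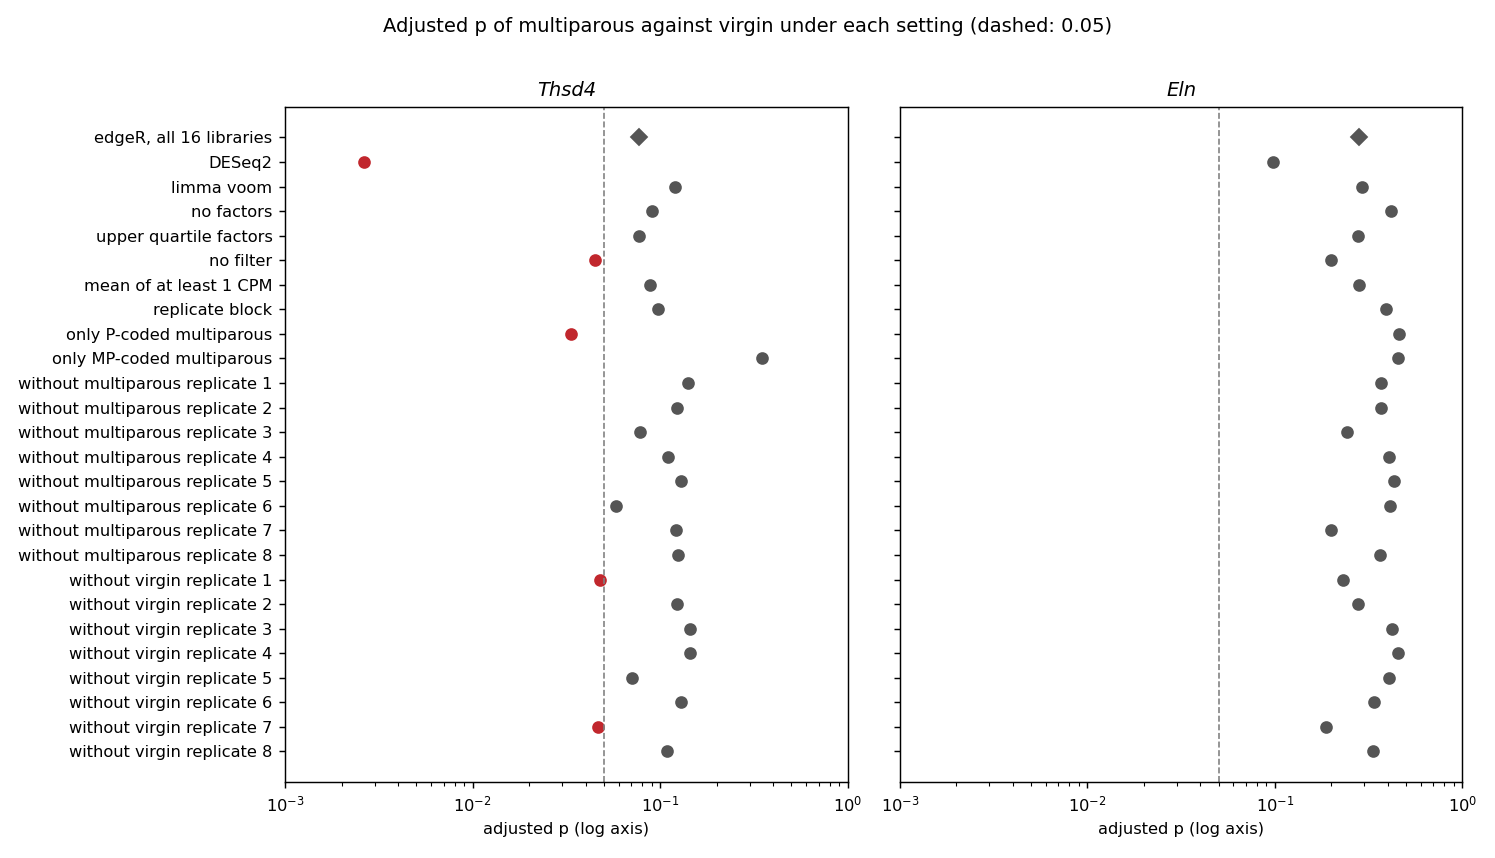
Adjusted p of multiparous against virgin (log axis) for Thsd4 and Eln, with 1 point per setting: the diamond is edgeR on all 16 libraries, red points lie under 0.05 and the dashed line marks 0.05. Thsd4 lies under the line in 5 of 25 alternatives, with DESeq2 lowest at 0.00264, and Eln in none, with DESeq2 lowest at 0.0979.

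Fbn1 (ENSMUSG00000027204.13, chromosome 2, 125300594 to 125507993, minus strand) encodes fibrillin-1, the structural subunit of the microfibril. It measured 123 CPM at the lowest, 151 at the median and 194 at the highest in multiparous hearts, and 128, 137 and 177 CPM in virgin hearts. The highest values were those of multiparous 1 and virgin 7, and the ranges of the groups lay almost on top of each other. The log2 fold change was 0.11 (SE 0.08, 95% interval −0.05 to 0.28, edgeR adjusted p = 0.78), and it was 0.06 without multiparous replicate 1. Of its 12128 exonic bases, 2442 lie opposite Gm9913, which averaged 37.1 raw counts against 8269 for Fbn1. The library kit keeps the strand, but the strand setting of the counting was not stated, so for Fbn1, Mfap4, Eln and Ltbp2, which overlap a gene on the opposite strand, reads of the partner cannot be told apart.

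Mfap5 (ENSMUSG00000030116.14, chromosome 6, 122505845 to 122529290, plus strand) encodes MAGP-2, a small glycoprotein that decorates fibrillin microfibrils. It measured 12.6, 15.2 and 19.3 CPM (lowest, median, highest) in multiparous hearts, against 8.56, 13.6 and 18.0 CPM in virgin ones. Virgin 2 alone lay below 12 CPM, and without virgin replicate 2 the log2 fold change went from 0.15 (SE 0.12) to 0.08. Mfap4 (ENSMUSG00000042436.12, chromosome 11, 61485431 to 61488900, plus strand), a fibrinogen-domain protein that binds elastin and microfibrils and has an integrin-binding motif, measured 4.25, 5.97 and 9.01 CPM in multiparous hearts, against 5.21, 7.45 and 8.48 CPM in virgin ones. The 3 lowest multiparous libraries lay below every virgin one and the highest lay above them all, so the multiparous group was the wider, with a coefficient of variation of 28.6% against 17.2%. The log2 fold change of Mfap4 was −0.20 (SE 0.15, edgeR adjusted p = 0.802) and the edgeR adjusted p of Mfap5 was 0.798. Mfap4 shares 89 of its 1922 exonic bases with Mapk7 on the opposite strand, which averaged 387 raw counts against 382 for Mfap4.

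Eln (ENSMUSG00000029675.12, chromosome 5, 134702593 to 134747323, minus strand) encodes tropoelastin, the soluble precursor of the elastic fibre's core. In multiparous hearts it measured 21.7 CPM at the lowest, 25.3 at the median and 31.5 at the highest, and in virgin hearts 26.1, 30.6 and 39.4 CPM. No multiparous library reached the virgin mean, 5 lay below every virgin library, and virgin 1, 4 and 5 lay above every multiparous one. The multiparous library was the higher in 7 of 64 pairs. The mean was 25.7 ± 3.3 CPM after pregnancies against 31.7 ± 4.8 CPM without (SD, n = 8 each), and the log2 fold change was −0.30 (SE 0.09, 95% interval −0.49 to −0.11, edgeR adjusted p = 0.281). It did not pass in any of the 25 alternatives, in which the log2 fold change stayed between −0.35 and −0.25. The P-coded libraries alone gave −0.33 and the MP-coded ones −0.28 against the shared virgin libraries. Of its 8098 exonic bases, 267 lie opposite Gm30003.

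Smooth muscle cells are a known source of elastin. Of 14 smooth muscle and pericyte markers, 8 had lower estimates in multiparous hearts: Cnn1, Tagln, Mylk, Des, Acta2, Myh11, Smtn and Lmod1. The others, Abcc9, Pdgfrb, Kcnj8, Notch3, Rgs5 and Cspg4, had higher estimates. At an unadjusted p under 0.05, 2 were lower (Cnn1 and Tagln) and 1 higher (Abcc9), where 4.09% of all genes were lower and 4.04% higher. None of the 14 passed over all genes. Their median log2 fold change was −0.07, and their summed level was 3499 to 3749 CPM in multiparous and 3057 to 3824 CPM in virgin hearts. Most of that sum came from Des (1544 against 1645 CPM, multiparous against virgin mean), Rgs5 (755 against 736) and Abcc9 (744 against 668). Acta2 (74.9 against 92.3 CPM), Myh11 (26.3 against 31.5) and Tagln (13.0 against 16.6) weighed little in it. A relation with that sum therefore says little about Acta2, Myh11 or Tagln. After group means were removed, Eln had a rho of −0.19 with that sum (Spearman, permutation p = 0.486, adjusted p = 0.696). Pearson's r was −0.34 (permutation p = 0.269, adjusted p = 0.511). Within groups the rho was 0.12 in multiparous and −0.40 in virgin hearts. The part of smooth muscle cells and pericytes in the Eln difference was not tested.

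Fbln5 (ENSMUSG00000021186.9, chromosome 12, 101746565 to 101819055, minus strand) encodes fibulin-5, which ties tropoelastin to microfibrils and to integrins on the cell surface. It measured 15.4, 22.8 and 27.7 CPM (lowest, median, highest) in multiparous hearts, against 17.0, 21.5 and 23.4 CPM in virgin ones. Multiparous 2 had the lowest level of all 16, yet 4 multiparous libraries, the 4 MP-coded ones, lay above every virgin library. The share of all genes for which the MP-coded libraries lie above every virgin library was not counted. The log2 fold change was 0.09 (SE 0.09, edgeR adjusted p = 0.87), and its 95% interval of −0.11 to 0.28 reached to both sides of 0. It was 0.04 without multiparous replicate 6 and 0.15 without multiparous replicate 2. With the MP-coded libraries alone it was 0.25 (SE 0.08, edgeR adjusted p = 0.382). With the P-coded ones it was −0.09 (SE 0.10, edgeR adjusted p = 0.886), against the same virgin libraries.

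The latent TGF-beta binding proteins are 4 relatives of fibrillin. Ltbp1, Ltbp3 and Ltbp4 bind the latent growth factor covalently through its propeptide, Ltbp4 also guides fibulin-5 and elastin deposition, and Ltbp2 binds microfibrils but no latent TGF-beta. None of the 4 passed between multiparous and virgin hearts, and the 95% interval of each difference held 0.

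Ltbp4 (ENSMUSG00000040488.18, chromosome 7, 27305136 to 27337692, minus strand in an annotation that carries another version of this identifier) measured 320, 391 and 472 CPM (lowest, median, highest) in multiparous hearts, against 293, 386 and 430 CPM in virgin ones. Its log2 fold change was 0.06 (SE 0.09, edgeR adjusted p = 0.912), and it ranged from 0.02 (without virgin replicate 1) to 0.10 (without multiparous replicate 4) when 1 library was left out. Ltbp3 (ENSMUSG00000024940.11, chromosome 19, 5740904 to 5758532, plus strand) measured 40.4, 43.4 and 49.8 CPM against 40.7, 45.03 and 47.3 CPM. It was the steadiest of the 10 genes, with coefficients of variation of 7.81% and 5.18% and a 95% interval of the log2 fold change of −0.10 to 0.10.

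Ltbp2 (ENSMUSG00000002020.15, chromosome 12, 84783212 to 84876532, minus strand) was the most variable. It measured 3.09, 4.81 and 11.0 CPM (lowest, median, highest) in multiparous hearts, against 5.45, 7.06 and 12.1 CPM in virgin ones. Multiparous 2, 3, 4 and 5 lay below every virgin library, while multiparous 6 (11.0 CPM) lay above all but virgin 7 (12.1 CPM). The log2 fold change was −0.41 (SE 0.24, 95% interval −0.92 to 0.10, edgeR adjusted p = 0.724). It went to −0.63 without multiparous replicate 6 and to −0.27 without virgin replicate 7, and passed in neither fit (edgeR adjusted p = 0.411 and 0.773). D030025P21Rik, which lies opposite 764 of its 8184 exonic bases, averaged 1.63 raw counts against 387.

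Ltbp1 (ENSMUSG00000001870.16, chromosome 17, 75005568 to 75392512, plus strand) has 2 RefSeq starts, known for a long and a short form of the protein, which counts per gene do not separate. The 250 bases before each are shown because Ltbp1 had the smallest p of the 10 genes between the library codes. They lie on the plus strand of GRCm38.p6, hold no annotated exon, and have the same letters in capitals as the windows of Thsd4.
Ltbp1, first start, chr17:75005279-75005528: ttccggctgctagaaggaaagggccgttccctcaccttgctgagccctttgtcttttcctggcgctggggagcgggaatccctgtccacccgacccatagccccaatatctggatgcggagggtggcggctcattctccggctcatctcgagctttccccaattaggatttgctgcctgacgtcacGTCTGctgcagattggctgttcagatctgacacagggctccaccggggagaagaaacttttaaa
Ltbp1, second start, chr17:75178531-75178780: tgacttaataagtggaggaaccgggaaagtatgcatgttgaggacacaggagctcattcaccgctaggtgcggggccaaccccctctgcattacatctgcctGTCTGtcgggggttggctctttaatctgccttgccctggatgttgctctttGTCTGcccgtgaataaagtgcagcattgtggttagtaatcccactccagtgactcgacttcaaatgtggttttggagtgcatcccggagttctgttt
The first window has 1 match and the second has 2. Ltbp1 measured 69.8, 86.9 and 97.2 CPM (lowest, median, highest) in multiparous hearts, against 69.1, 78.0 and 91.9 CPM in virgin ones. Multiparous 1 and 2 lay above every virgin library and the other 6 within their range, and the log2 fold change was 0.09 (SE 0.07, edgeR adjusted p = 0.81).

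**Figure D3:**
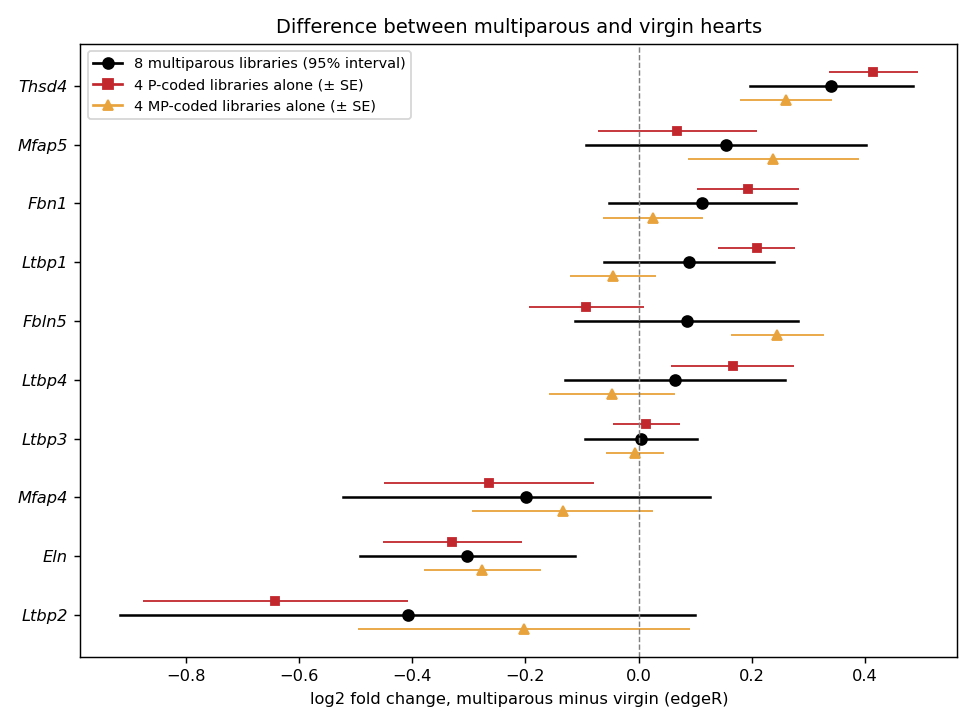
Log2 fold change of each gene, multiparous minus virgin (edgeR). Black points with 95% intervals use all 8 multiparous libraries, and red squares and orange triangles (± SE) use the 4 P-coded or 4 MP-coded libraries alone against the same 8 virgin libraries; Thsd4 lies right of 0 and Eln left of 0 in all 3, while Ltbp1, Ltbp3, Ltbp4 and Fbln5 lie on different sides of 0 in the 2 codes.

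The level per kilobase of exon, which allows genes to be set against each other, was highest for Ltbp4 by a wide margin. It held 59.3 ± 8.1 CPM per kilobase (SD over 16 libraries), 4.86 times Fbn1 (12.2 ± 1.5). Ltbp1 followed at 7.68 ± 0.84 and Ltbp3 at 4.91 ± 0.31, and each of Ltbp4, Fbn1 and Ltbp1 lay above the next gene in 16 of 16 libraries. Mfap5 (4.04 ± 0.72), Eln (3.55 ± 0.62), Mfap4 (3.49 ± 0.81) and Fbln5 (3.15 ± 0.43) were not set apart from one another by the spread between libraries: Mfap5 lay above Eln in 12 of 16 libraries, Eln above Mfap4 in 11 and Mfap4 above Fbln5 in 10. Fbln5 lay above Ltbp2 in all 16. Ltbp2 (0.788 ± 0.31) and Thsd4 (0.615 ± 0.094) were the lowest, and Ltbp2 lay above Thsd4 in 10 of 16 libraries. Of the summed level per length of the 4 latent TGF-beta binding genes, Ltbp4 made up 81.7% ± 1.0 in multiparous hearts against 81.2% ± 2.0 in virgin ones (SD, n = 8 each), Ltbp1 10.7% and 10.6%, Ltbp3 6.68% and 6.97%, and Ltbp2 0.906% and 1.27%. These shares rest on exon lengths merged over all annotated transcripts, which may be longer than the transcripts present.

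**Figure D4:**
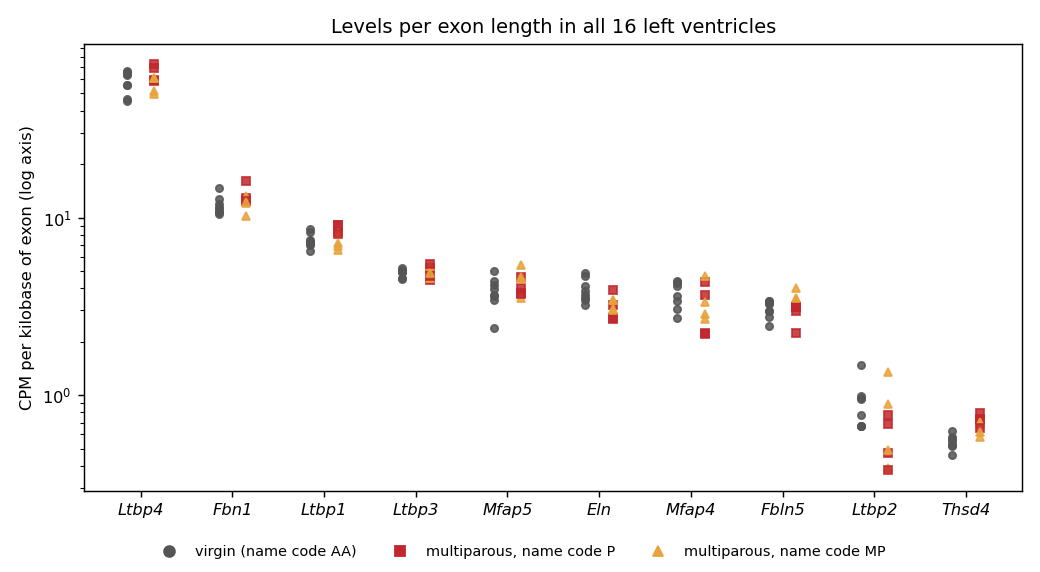
Level of each gene as CPM per kilobase of merged exon (log axis) in 16 left ventricles, in order of the mean, with points shaped by name code. Ltbp4 (mean 59.3) stands above all others, and Ltbp2 (0.788) and Thsd4 (0.615) lie lowest.

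Within the multiparous group, the MP-coded and P-coded libraries were compared by the same edgeR test. None of the 10 genes passed, by edgeR or by DESeq2, where edgeR called 0.121% of 18123 genes, and 3 had an unadjusted p under 0.05, where 11.0% of all genes had. Ltbp1 measured 73.7, 69.8, 87.7 and 76.7 CPM in the MP-coded and 97.2, 96.5, 89.1 and 86.1 CPM in the P-coded libraries. The P-coded values were higher except that multiparous 6 lay above multiparous 7, and the log2 difference, MP minus P, was −0.26 (SE 0.07, edgeR adjusted p = 0.225). Fbln5 went the other way, at 24.0, 23.8, 27.7 and 24.4 CPM in the MP-coded and 20.5, 15.4, 21.7 and 21.7 CPM in the P-coded libraries. Its ranges did not overlap, as for 5.96% of 17813 genes, and the log2 difference was 0.33 (SE 0.11, edgeR adjusted p = 0.258). Ltbp4 measured 362 ± 40 CPM in the MP-coded and 421 ± 45 CPM in the P-coded libraries (SD, n = 4 each), a log2 difference of −0.22 (edgeR adjusted p = 0.43). Thsd4 (9.07 ± 0.79 against 10.2 ± 0.8 CPM) and Eln (26.1 ± 1.9 against 25.3 ± 4.6 CPM) did not pass between the codes either (edgeR adjusted p = 0.55 and 0.916). Marker genes of other cell types moved with the codes too. Kidney tubule markers summed to 6.89 to 16.7 CPM in the MP-coded and 1.49 to 3.57 CPM in the P-coded libraries, with 6 higher in the MP-coded ones at an unadjusted p under 0.05, 3 of them called. Of 8 mesothelial markers, 5 were higher at that level (median log2 difference 1.34, none called), and their sums were 28.2 to 49.5 against 11.7 to 34.8 CPM. Of 8 endothelial markers, 3 were lower at that level (median −0.09, none called), with sums of 1038 to 1162 against 1114 to 1212 CPM. The part of these cells in the code differences of Ltbp1, Fbln5 and Ltbp4 was not tested. Against the shared virgin libraries, 6 of the 10 genes had estimates of the same sign in both codes, and Ltbp1, Ltbp3, Ltbp4 and Fbln5 did not.

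Across libraries, after the mean of each group was removed, the 10 genes did not vary as 1 block. Of 45 pairs, 37 had a Spearman's rho above 0, with a median of 0.25, and 1 pair passed in both measures with p-values adjusted over the 45. That pair was Ltbp3 with Mfap4 (rho 0.84, permutation p = 0.00032, adjusted p = 0.0144, and Pearson's r 0.83, permutation p = 0.00049, adjusted p = 0.022), with an r of 0.84 without the 2 libraries farthest from the median of Ltbp3. Within the multiparous libraries alone its rho was 0.86, and within the virgin ones 0.45. Fbn1 and Ltbp4, both of the microfibril, followed (rho 0.76, permutation p = 0.00124, adjusted p = 0.0279, and r 0.66, permutation p = 0.00676, adjusted p = 0.0995). Their r was 0.58 without the 2 libraries farthest from the median of Fbn1, and their rho was 0.71 in multiparous and 0.62 in virgin hearts. The codes P and MP hold too few libraries for a value of their own. Thsd4 had a rho between −0.21 (Fbln5) and 0.31 (Eln) with the other 9. Within groups these values differed: with Mfap5 its rho was 0.90 in virgin and −0.38 in multiparous hearts, and with Fbln5 it was 0.55 in virgin and −0.83 in multiparous hearts, differences that were not tested. Its rho with Fbn1, whose protein it helps to assemble, was 0.09. Libraries share depth and dissection, which a correlation also carries.

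Set against summed levels of 11 marker lists, 1 of 110 relations passed in both measures. Ltbp4 followed endothelial markers (rho 0.81, permutation p = 0.00069, adjusted p = 0.0379, and r 0.85, permutation p = 8e-05, adjusted p = 0.0088, or r 0.77 without the 2 libraries farthest from the median of Ltbp4), with a rho of 0.60 in multiparous and 0.98 in virgin hearts. Ltbp1 had its highest rho with cardiomyocyte markers (rho 0.82, permutation p = 0.0003, adjusted p = 0.033, and r 0.65, permutation p = 0.00451, adjusted p = 0.0948, or r 0.71 without the 2 farthest libraries). Fbn1 had its highest with fibroblast markers (rho 0.72, permutation p = 0.00253, adjusted p = 0.0928, and r 0.63, permutation p = 0.0144, adjusted p = 0.106, or r 0.63 without the 2 farthest libraries). Within groups these 2 relations had a rho of 0.81 and 0.48 in multiparous and 0.86 and 0.98 in virgin hearts. Ltbp3, Mfap4 and Ltbp2 had their highest rho with cartilage and valve markers (0.69, 0.68 and 0.64, permutation p = 0.00776, 0.00913 and 0.0166, adjusted p = 0.16 each). For Ltbp2 Pearson's r was 0.80 (permutation p = 0.00089, adjusted p = 0.0489), or 0.56 without the 2 libraries farthest from its median. Of the 8 genes in that list, 3 were tested. All 8 tested kidney tubule markers had lower estimates in multiparous hearts with an unadjusted p under 0.05 (median log2 fold change −3.41), and none passed there. Between the codes 3 of them did pass, all higher in the MP-coded libraries: Kap (edgeR adjusted p = 0.0102), Slc34a1 (edgeR adjusted p = 0.0366) and Umod (edgeR adjusted p = 0.0444). With their summed level, Thsd4 had a rho of 0.06 (permutation p = 0.82, adjusted p = 0.921) and Eln of 0.24 (permutation p = 0.396, adjusted p = 0.67). The part of these transcripts in the levels of Thsd4 and Eln was not tested. Eln had its strongest relation with cardiomyocyte markers, in the opposite direction (rho −0.64, permutation p = 0.0113, adjusted p = 0.16, and r −0.64, permutation p = 0.0101, adjusted p = 0.106, or r −0.77 without the 2 farthest libraries), which did not pass. Ttn and Myh6 weighed most in the cardiomyocyte sum, at 21885 and 20360 of a mean of 74928 CPM in multiparous hearts. In virgin hearts they held 21871 and 20694 of 76915 CPM. The SD of Ttn was 4735 CPM in multiparous and 4531 in virgin hearts, and that of the sum 5585 and 8273. The part of single genes in the relations of Ltbp1 and Eln with that sum was not tested.

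**Figure D5:**
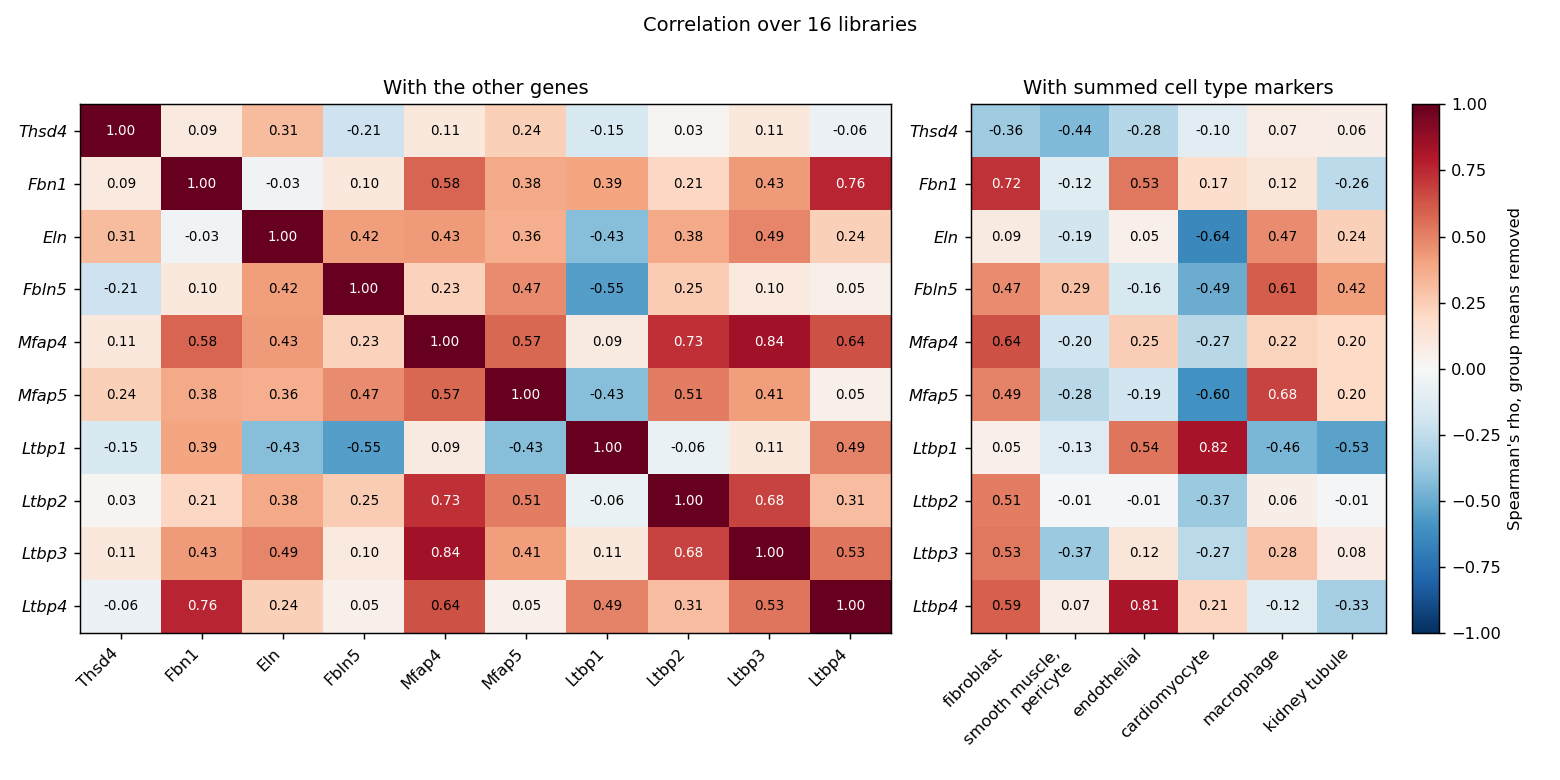
Spearman's rho over 16 libraries after removing each group's mean, for pairs of the 10 genes (left) and for each gene with the summed CPM of 6 of the 11 marker lists (right), where colour and number give rho. The diagonal of the left panel sets each gene against itself. Apart from it, the Ltbp3 row is darkest at Mfap4 (0.84), Ltbp4 at endothelial markers (0.81) and Ltbp1 at cardiomyocyte markers (0.82). Also apart from it, the Thsd4 row of the left panel lies between −0.21 and 0.31.

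By the same measure over 16 libraries and 14097 genes with proper symbols, the genes most like each of the 10 are given as descriptions. For Thsd4 these were Ppp4r3a, Ppp1r8 and Ntan1 (rho 0.83, 0.78 and 0.78), the lowest first value among the 10 genes. For Fbn1 they were Cd34, Reep3 and Elk3 (0.89 each), of which Cd34 marks endothelial cells and some fibroblasts. Eln was closest to Gas2l1 (0.93), Ddit4 and Zmynd15, and Fbln5 to Pdgfd (0.91), a platelet-derived growth factor, Rapgef3 and Ric3. Mfap5 was closest to Emp3 (0.91), the matrix protein gene Ecm1 and Pqlc3, and Mfap4 to the proteoglycan gene Bgn (0.86), Elf4 and Mxra8. Among the binding proteins, Ltbp1 was closest to Mef2c (0.90), a transcription factor of muscle and endothelium, Trim35 and Snai3, and Ltbp2 to Erf (0.88), Igsf8 and the matrix gene Cilp. Ltbp3 was closest to Cercam (0.87), Stk32c and Plscr3, and Ltbp4 to Asap2 (0.92), Icmt and Dpysl2.

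The other genes of these pathways were described from lists, and none of their members passed in either comparison. Of 30 tested partners of elastic fibres and microfibrils, 4 had a higher and 2 a lower level after pregnancies with an unadjusted p under 0.05, where 4.04% and 4.09% of all genes had, with a median log2 fold change of 0.03. The 3 with the smallest p were Fbln1, a fibulin of elastic fibres and basement membranes (110 ± 25 against 80.7 ± 11.9 CPM, SD, n = 8 each, log2 fold change 0.45, edgeR adjusted p = 0.219), the fibulin gene Efemp1 (12.7 against 9.64 CPM, edgeR adjusted p = 0.362) and the proteoglycan gene Dcn (383 against 335 CPM, edgeR adjusted p = 0.376). DESeq2 called Fbln1 (adjusted p = 0.036). Further partners, picked for their role after their values were seen, did not pass. Lox, a crosslinking enzyme of elastin and collagen, measured 3.58 against 3.71 CPM, Loxl1, which crosslinks elastin, 37.4 against 38.6 CPM, Efemp2, the fibulin that brings the crosslinking enzyme to elastin, 7.77 against 7.64 CPM, and Fbn2, the developmental fibrillin, 3.05 against 3.46 CPM.

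Of 8 TGF-beta ligand and receptor genes, 1 was higher at an unadjusted p under 0.05 (4.04% of all genes were), the co-receptor gene Tgfbr3 (105 ± 11 against 94.4 ± 10.4 CPM, log2 fold change 0.15, edgeR adjusted p = 0.61). The signalling receptor gene Tgfbr2 (76.7 against 73.2 CPM) and the endothelial co-receptor gene Eng (196 against 186 CPM) came next. Of 15 tested genes listed for latent TGF-beta activation or its control, 2 were higher and 1 lower at that level, against 4.04% and 4.09% of all genes. The higher ones were Htra3, a secreted serine protease (65.5 against 54.3 CPM, edgeR adjusted p = 0.294), and the integrin subunit gene Itgb5 (86.5 against 78.3 CPM, edgeR adjusted p = 0.353). The lower one was Thbs1, thrombospondin-1, which can activate the latent complex (22.2 ± 4.8 against 30.3 ± 8.5 CPM, log2 fold change −0.45, edgeR adjusted p = 0.393).

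No gene of 18 listed as induced by or responding to signals of the TGF-beta and BMP family had an unadjusted p under 0.05. Their median log2 fold change was 0.03, and the 3 with the smallest p were Ldlrad4 (12.2 against 11.0 CPM), Id1 (24.4 against 21.9 CPM) and Smad6 (16.04 against 13.6 CPM), which feed back on or respond to signals of the TGF-beta and BMP family. Of 11 tested genes of elastin breakdown and its control, 3 were higher at that level, against 4.04% of all genes: the cathepsin inhibitor gene Cst3 (245 against 226 CPM, edgeR adjusted p = 0.444), the metalloproteinase inhibitor gene Timp2 (118 against 101 CPM, edgeR adjusted p = 0.482) and the elastolytic cathepsin gene Ctsk (3.89 against 3.15 CPM, edgeR adjusted p = 0.585). The medians of these 2 lists and of the ligand, partner and latent TGF-beta activation lists, 0.01 to 0.05, compare with −0.00297 over all genes.

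Fibroblasts make most of these matrix proteins. Of 15 fibroblast markers, 11 had higher estimates in multiparous hearts, 5 with an unadjusted p under 0.05, where 4.04% of all genes were higher, and none past the threshold. No marker was at 0 in all libraries. Their summed level was 1715 to 2595 CPM in multiparous and 1595 to 2139 CPM in virgin hearts, with a median log2 fold change of 0.13. Gsn alone held 1013 of a mean sum of 2139 CPM in multiparous and 781 of 1819 CPM in virgin hearts. After group means were removed, Thsd4 had a rho of −0.36 with that sum (Spearman, permutation p = 0.195, adjusted p = 0.54). Eln had a rho of 0.09 (permutation p = 0.741, adjusted p = 0.876). Within groups the rho of Thsd4 was −0.74 in multiparous and 0.24 in virgin hearts, and that of Eln 0.12 and 0.17. All 8 endocardial markers had higher estimates, 4 of them with an unadjusted p under 0.05, against 4.04% of all genes, and none called (median 0.315). Their sums were 193 to 332 CPM in multiparous and 152 to 393 CPM in virgin hearts. Of 10 cardiomyocyte markers, 9 had lower estimates, 2 of them with an unadjusted p under 0.05 against 4.09% of all genes, and none was called (median −0.05). The part of fibroblast, endocardial or muscle content in the levels of the 10 genes was not tested.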

How the data were processed

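Total RNA from 16 mouse left ventricles was sequenced as paired ends after ribosomal RNA depletion with a strand-keeping kit. The deposited values are whole-number read counts per gene, which the authors made with Trim Galore 0.6.10, STAR 2.7.11b and HTSeq 0.11.1 on GRCm38.p6, per the submitters' processing notes. Summary lines of HTSeq that name no gene held 26.5% to 33.1% of each library's total and were left out.

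Differences were tested on the counts by edgeR 4.0.16, under R 4.3.3 (TMM factors, filterByExpr, quasi-likelihood F test, Benjamini-Hochberg adjustment over all genes kept, threshold 0.05), which was checked on simulated counts. DESeq2 1.42.0, limma 3.58.1 (voom), other scalings and filters, a replicate block, each code alone and leaving out each library were the alternatives. Levels are CPM with TMM factors. Gene positions and merged exon lengths came from GENCODE M21, matched by identifier without its version, and promoter windows from RefSeq (GRCm38.p6). Promoter entries were used for 7 of the 10 genes. Some overlaps between genes are not reported here. Correlations used log2 CPM with group means removed and 100000 permutations of libraries within groups, with adjustment over 45 pairs or 110 relations with marker sums. They had been planned as descriptions, and the permutation p-values were added later.

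All 10 genes are named, and from each pathway list the genes called plus up to 3 with the smallest p. Single cell type markers were named after their values were seen. The 3 genes most like each member by Spearman's rho are named too. The members and lists were chosen with earlier results of these data known. The labels do not say whether libraries with the same number in the 2 groups are paired. Their deviations from the group means had correlations of −0.11 to 0.29, which cannot settle it, and the main test treats the libraries as unpaired.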

Additional observations from a re-analysis of the deposited data

Results flagged for a closer look

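Ltbp2 in virgin 7, at 12.1 CPM, stood apart from the other 7 virgin hearts. Its gap to the nearest of them made up 0.598 of the group's whole range, above Dixon's 95% critical value for 8 libraries. Of the 20 groups tested (10 genes in each of 2 groups) this was the 1 found, and chance alone flags about 1 in 20. Without virgin replicate 7 the log2 fold change of Ltbp2 between multiparous and virgin hearts was −0.27 in place of −0.41, and neither passed (edgeR adjusted p = 0.773 and 0.724).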

How the results depend on the processing

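The count of all genes called between multiparous and virgin hearts, 2 in edgeR on all libraries, was 130 with DESeq2, 0 without scaling factors, 56 with no filter, 97 with the P-coded and 0 with the MP-coded libraries alone, and 0 to 55 when 1 library was left out (55 without virgin 7, 33 without virgin 5, 24 without multiparous 3, 23 without virgin 1, 5 without virgin 2, and 0 or 1 without any other). Without scaling factors the split at an unadjusted p under 0.05 moved from 719 higher and 728 lower to 1214 higher and 397 lower, with a median shift of 0.03. Of the 10 genes, 0 were called in edgeR on all libraries, and 1, Thsd4, was called with DESeq2, with no filter and with the P-coded libraries alone, and 0 to 1 when 1 library was left out. Between the codes, 22 genes were called, against 295 with DESeq2, 7 without scaling factors, 389 with no filter, 2 with all 3 codes in 1 model and 3 to 197 when 1 library was left out (197 without multiparous 5, 3 without multiparous 1 or 7, 7 without multiparous 2 or 3), and none of the 10 genes was called in any of these fits. Whether the replicate numbers pair the animals is not known. With the number as a replicate block, 33 genes and 0 of the 10 were called. Of the same-numbered libraries, 1 of 8 correlated best with its own number.

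Some estimates changed sign. With the MP-coded libraries alone the log2 fold change was −0.0449 for Ltbp1, −0.00559 for Ltbp3 and −0.0470 for Ltbp4, and with the P-coded ones −0.0920 for Fbln5 and −0.0556 for Eng. The other code was not always near 0, with 0.209 for Ltbp1, 0.01 for Ltbp3 and 0.17 for Ltbp4 in the P-coded libraries. For Fbln5 it was 0.25 in the MP-coded ones. Leaving out 1 library gave −0.0200 to 0.0238 for Ltbp3. Between the codes it gave −0.0173 to 0.167 for Eln, −0.0712 to 0.0258 for Ltbp3 and −0.0762 to 0.33 for Mfap4. DESeq2 also called Fbln1. The cause was not tested.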
